A study of Homo sapiens with 4 samples.

Results

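The genes for the EGF receptor family and its ligands were followed in HGC-27 cells, an established gastric carcinoma cell line, by RNA-Seq with and without knockdown of USP47, the gene for a deubiquitinase. The set was given by name and held 10 genes of the 63568 identifiers in the count files, namely the receptors EGFR, ERBB2, ERBB3 and ERBB4, the ligands HBEGF, AREG, EREG, TGFA and NRG1, and the inhibitor ERRFI1. Each symbol matched a single identifier. There were 2 libraries of cells infected with lentivirus carrying control shRNA, which the labels describe as scrambled, and 2 libraries of cells infected with lentivirus carrying USP47 shRNA. All cells therefore carried a lentiviral shRNA vector and, by the study's methods, had been selected with puromycin as stable lines. The study used 2 independent shRNAs for its knockdown lines and writes of shRNAs in the plural for the RNA-Seq. The sources used here do not state whether the 2 USP47 shRNA libraries carried the same hairpin. The study's methods describe RNA taken in triplicate and, for its experiments in general, independent biological replicates. Each group here has 2 libraries and any further replicate was not analysed here, so every p-value rests on 2 libraries per group.

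Receptors of this family are tyrosine kinases of the cell surface that bind ligand outside the cell, pair with one another and recruit adaptors to their phosphorylated tails. EGFR binds HBEGF, AREG, EREG and TGFA, ERBB3 and ERBB4 bind the neuregulins, ERBB2 has no known ligand of its own and serves as the favored partner, and ERBB3 has little kinase activity. Most ligands are made as membrane-bound precursors that are released by ADAM proteases, and ERRFI1 (also called MIG6) binds the active kinase domain and blocks it. In gastric cancer the family is best known through ERBB2, whose gene is amplified in some tumors.

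The knockdown was visible in both libraries. USP47 had 79.8 and 65.9 CPM (counts scaled to library size, after TMM normalization) with control shRNA and 35.9 and 21.5 CPM with USP47 shRNA, which left 49.3% and 29.5% of the control mean (log2 fold change -1.34 with a standard error of 0.21, adjusted p = 0.00362 in the quasi-likelihood test of edgeR). Library totals lay between 15649899 and 20140273 counts. Of the 21932 genes that passed the filter on low counts, 9.56% were called lower and 6.52% higher in the knockdown at an adjusted p under 0.05. Defining epithelial markers were near 0 in every library. KRT18 and KRT19 had at most 1 count, EPCAM had 12 and 11 counts in control and 3 and 3 in knockdown libraries, and the 6 epithelial markers summed to between 1.10 and 1.78 TPM (the authors' value per gene length, scaled to a common total in each library). The 4 fibroblast markers COL1A1, COL3A1, LUM and DCN summed to between 510 and 575 TPM, so the marker levels go against an epithelial profile for the line labelled as a carcinoma. The mesenchymal markers VIM, ZEB1, CDH2, TWIST1 and FN1 summed to between 202 and 239 TPM (FN1 called lower), the gastric mucosa markers to between 4.63 and 5.59 TPM, the leukocyte markers to at most 3.88 TPM and the 2 of 3 endothelial markers that matched an identifier to at most 0.0812 TPM. Of the fibroblast list only COL1A1 was called (lower), and of the epithelial list only EPCAM (lower); their part in the results below was not tested.

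A single ligand could not be read from these counts. AREG, the gene for amphiregulin, was at 0 counts in all 4 libraries, where 3 counts of the total would be between 0.149 and 0.192 CPM. Build GRCh37 holds a second copy of this gene, AREGB, on the same chromosome (AREG at chr4:75310853-75320722 and AREGB at chr4:75480629-75490486), and AREGB was also at 0 counts in all 4 libraries. Of the 50-base windows inside AREG exons 97.6% occurred without a mismatch in AREGB, and of the 100-base windows 96.9%. Reads that map to both places are commonly not counted, and the counting rule is not given in the sources used here, so the 0 does not tell whether AREG was expressed. The coding part of the second AREG exon is shown because it stands base for base in both places, at chr4:75312251-75312499 and at chr4:75482006-75482254 of GRCh37, plus strand.
AREG exon shared with AREGB: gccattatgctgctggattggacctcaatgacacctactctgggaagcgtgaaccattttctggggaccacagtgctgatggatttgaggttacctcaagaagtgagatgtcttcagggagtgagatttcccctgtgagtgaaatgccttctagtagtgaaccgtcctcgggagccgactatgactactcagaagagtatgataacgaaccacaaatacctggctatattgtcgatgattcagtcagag

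Across the other genes the levels per length were low apart from ERBB2. In the control libraries the deposited TPM of ERBB2 was 13.6 and 12.8, and ERRFI1 followed with 3.49 and 3.23 TPM. ERBB4 had 2.91 and 2.55 TPM, ERBB3 1.79 and 2.06 TPM, HBEGF 1.25 and 1.21 TPM and EGFR 0.696 and 0.560 TPM. At the bottom stood NRG1 with 0.359 and 0.299 TPM and TGFA with 0.277 and 0.145 TPM. Between these neighbors the ranges of the 2 control libraries did not overlap, although NRG1 and TGFA changed places when exon lengths of GENCODE release 44 were used. EREG, the gene for epiregulin, had a single count, in USP47 shRNA replicate 2, and 0 counts elsewhere.

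In the knockdown the order changed in the middle. HBEGF stood at 1.87 and 1.33 TPM and ERBB4 at 1.66 and 1.38 TPM, so these overlapped, and both lay above ERBB3 with 0.669 and 0.874 TPM. EGFR had 0.360 and 0.280 TPM, and the ranges of NRG1 and TGFA overlapped. ERBB2 remained the highest with 11.8 and 10.7 TPM.

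Between groups, 3 of the 10 genes were called lower with USP47 shRNA (EGFR, ERBB3 and ERBB4), none was called higher, 5 were tested without a call and AREG and EREG did not pass the filter. Over all genes tested, 9.56% were called lower. The median log2 fold change of the 8 tested genes was -0.79, beside -0.01 over all genes tested. The knockdown values were both below the 2 control values in 4 of the 8 (EGFR, ERBB3, ERBB4 and NRG1), an order found in 31.7% of all genes tested, and above them in HBEGF, an order found in 29.3%. In bulk RNA, a change in the share of cells that express a gene and a change in its RNA per cell cannot be told apart. The genes were chosen with earlier results of these libraries known, so these counts describe the set and are not independent evidence.

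**Figure D1:**
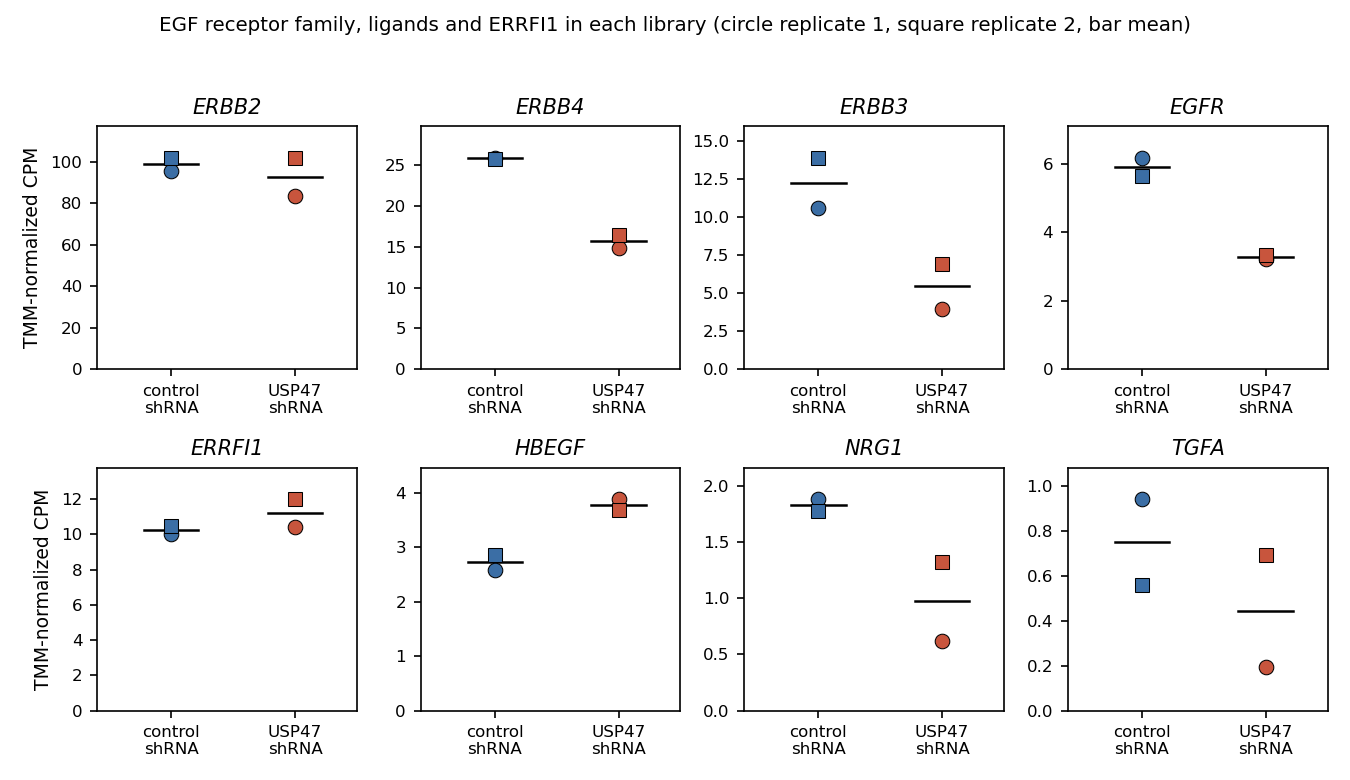
TMM-normalized CPM (vertical axes, linear and starting at 0) of the 8 tested genes in each of the 4 libraries, with blue for control shRNA, red for USP47 shRNA, circles for replicate 1, squares for replicate 2 and a bar for the group mean. The groups stood apart for ERBB4, ERBB3, EGFR, HBEGF and NRG1, and overlapped for ERBB2, ERRFI1 and TGFA.

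ERBB3, the neuregulin receptor with little kinase activity of its own, had the largest called change. It had 10.6 and 13.9 CPM with control shRNA against 3.98 and 6.95 CPM with USP47 shRNA. Both knockdown values were below both control values, at 32.5% and 56.8% of the control mean. The log2 fold change was -1.20 (95% interval -1.75 to -0.65, standard error 0.25, edgeR adjusted p = 0.0116). The call was kept in each alternative test and in each fit that left out 1 library, where the log2 fold change lay between -1.62 and -0.81. ERBB3 lies at chr12:56470583-56497289 of GRCh37 on the plus strand. An overlapping protein-coding gene model on the same strand, ENSG00000257411, had 0 counts in every library.

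ERBB4, the other neuregulin receptor and an active kinase, was steadier between replicates. Its values were 25.9 and 25.8 CPM with control shRNA and 14.9 and 16.5 CPM with USP47 shRNA. The knockdown libraries thus held 57.4% and 63.9% of the control mean (log2 fold change -0.72, standard error 0.14, 95% interval -1.03 to -0.42, edgeR adjusted p = 0.00829). With 1 control library left out the size stayed but the call did not, with an edgeR adjusted p of 0.0818 without control replicate 1 and 0.0606 without control replicate 2. These fits called few genes, 3.85% and 4.42% of those tested as lower. The gene spans chr2:212240442-213403565 on the minus strand.

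EGFR, the receptor for HBEGF and TGFA, was scarce and fell to about the same level in both knockdown libraries. The raw counts were 105 and 111 with control shRNA and 67 and 48 with USP47 shRNA. These correspond to 6.17 and 5.64 CPM against 3.21 and 3.34 CPM, or 54.4% and 56.5% of the control mean. The log2 fold change was -0.85 (95% interval -1.28 to -0.42, standard error 0.19, edgeR adjusted p = 0.0162). The call was lost with the DESeq2 Wald test (adjusted p = 0.0834), which called 7.13% of the genes it gave an adjusted p lower, without control replicate 1 (adjusted p = 0.148) and without control replicate 2 (adjusted p = 0.0654). EGFR lies at chr7:55086710-55279321 on the plus strand. Its antisense gene EGFR-AS1 had 5 and 2 counts in control and 0 and 1 in knockdown libraries.

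ERBB2, the preferred partner of the other receptors, did not pass the test. It had 95.9 and 102 CPM with control shRNA and 83.7 and 102 CPM with USP47 shRNA, and the groups overlapped. The log2 fold change was -0.10 (95% interval -0.40 to 0.21, edgeR adjusted p = 0.670), and it was 0.05 without USP47 shRNA replicate 1. This interval lies above those of ERBB3, ERBB4 and EGFR, but the difference between genes was not itself tested. PGAP3 and MIEN1 overlap ERBB2 on the opposite strand (chr17:37844167-37886679, plus strand for ERBB2), and whether the counting used strand is not given in the sources used here.

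**Figure D2:**
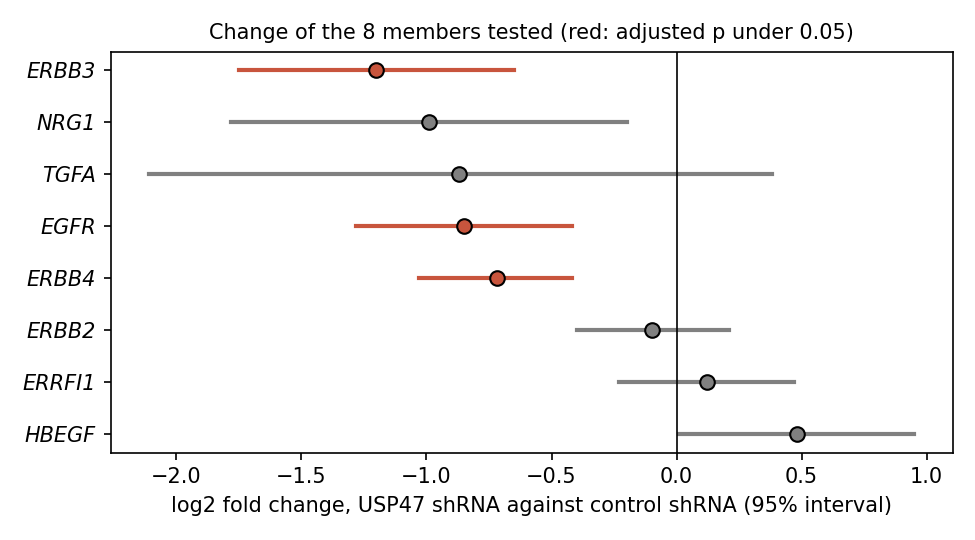
Log2 fold change of USP47 shRNA against control shRNA (horizontal axis) with its 95% interval for the 8 tested genes, with red for an adjusted p under 0.05. ERBB3, EGFR and ERBB4 lie left of 0 with intervals that end at -0.65, -0.42 and -0.42, and ERBB2 straddles 0.

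The shares of the receptors within a library do not depend on how libraries were scaled, only on the gene lengths used. ERBB2 made up 71.6% and 71.1% of the 4 receptors' summed TPM with control shRNA and 81.4% and 80.9% with USP47 shRNA. ERBB3 took 9.42% and 11.5% in control and 4.62% and 6.58% in knockdown libraries. ERBB4 went from 15.4% and 14.2% to 11.5% and 10.4%, and EGFR from 3.67% and 3.12% to 2.49% and 2.11%. For each receptor the shares of the groups did not overlap, with ERBB2 higher and EGFR, ERBB3 and ERBB4 lower. The shares of a library sum to the whole, so the higher ERBB2 share mirrors these lower shares and is not a separate result. No test was run on these shares. With 2 libraries a group, an exact permutation test could not have gone below a two-sided p of 0.333.

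**Figure D3:**
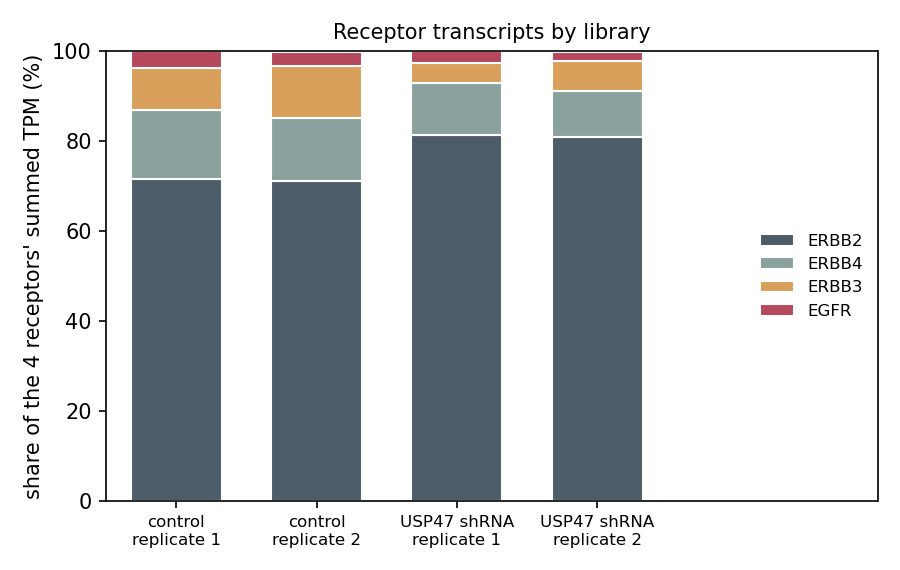
Share of each receptor in the summed TPM of ERBB2, ERBB4, ERBB3 and EGFR (stacked bars, percent, from 0 to 100) in the 4 libraries. The ERBB2 part is 71.6% and 71.1% in the control bars and 81.4% and 80.9% in the USP47 shRNA bars.

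Windows at annotated starts of a receptor that did not pass the test and of 2 receptors that fell are shown. That of ERBB3, which also fell, is not shown. They are RefSeq sequences of build GRCh38.p14, from 250 bases before to 50 after the annotated start, written along the gene's strand. The table used also holds a second, downstream start of EGFR. For ERBB2 it holds only the start shown, in a gene that PGAP3 overlaps by 8884 bases on the opposite strand. Read on the opposite strand, the bases of this window hold the first codons of PGAP3. The window is therefore not taken as the main ERBB2 promoter. Which ERBB2 start is used in these cells was not tested. Capitals mark matches on either strand to the GC box letters GGGCGG, bound by SP1. The same windows were searched for CAGGTG, the E-box letters bound by SNAI1, and for TGACTCA, the letters bound by AP-1 (FOS and JUN). No matches overlapped in the windows shown.
EGFR, chr7:55018767-55019066, plus strand: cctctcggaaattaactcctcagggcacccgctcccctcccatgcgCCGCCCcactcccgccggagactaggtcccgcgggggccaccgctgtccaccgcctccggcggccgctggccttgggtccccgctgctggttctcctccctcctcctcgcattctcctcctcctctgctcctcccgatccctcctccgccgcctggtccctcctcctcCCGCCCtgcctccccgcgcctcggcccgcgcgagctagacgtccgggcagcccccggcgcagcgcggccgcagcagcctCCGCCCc
ERBB4, chr2:212538753-212539052, minus strand: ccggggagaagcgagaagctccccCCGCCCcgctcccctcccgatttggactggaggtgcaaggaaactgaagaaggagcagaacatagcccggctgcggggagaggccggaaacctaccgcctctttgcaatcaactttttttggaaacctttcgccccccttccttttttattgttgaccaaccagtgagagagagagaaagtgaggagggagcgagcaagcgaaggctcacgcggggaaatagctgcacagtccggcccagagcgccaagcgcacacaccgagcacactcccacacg
ERBB2, chr17:39687844-39688143, plus strand: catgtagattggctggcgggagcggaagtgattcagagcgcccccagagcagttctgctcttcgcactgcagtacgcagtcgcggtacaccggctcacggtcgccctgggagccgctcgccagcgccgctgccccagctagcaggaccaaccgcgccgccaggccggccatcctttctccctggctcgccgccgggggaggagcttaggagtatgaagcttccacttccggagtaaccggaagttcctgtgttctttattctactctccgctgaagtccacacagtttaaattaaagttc

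The EGFR window held 3 GC boxes, the ERBB4 window 1 and the ERBB2 window 0, where 44.9% of all 35093 promoter windows of this length held at least 1. Of other tested members without a call, HBEGF held 5, ERRFI1 1, and TGFA 4 at 1 start and 0 at another. NRG1 was not searched. None of the 3 receptor windows shown held the E-box letters, found in 20.6% of all windows, or the AP-1 letters, found in 4.95%. The E-box letters had 1 match in HBEGF and 1 at a TGFA start. A link between these letters and the calls was not tested. The window of the downstream EGFR start held 2 matches to the AP-1 letters. The windows differed in base composition, with a GC content of 75.3% for EGFR, 59.0% for ERBB4 and 60.7% for ERBB2. The ERBB2 values describe a window over the start of PGAP3, so they do not compare the ERBB2 promoter with the others.

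Of the ligands, none was called. HBEGF, which encodes a heparin-binding ligand of EGFR and ERBB4, had the highest TPM in both groups among the ligands of the set other than AREG, which could not be read. It had 2.59 and 2.85 CPM in control and 3.88 and 3.68 CPM in knockdown libraries, so both knockdown values were higher. The log2 fold change was 0.48 (standard error 0.21, 95% interval 0.01 to 0.95), and it did not pass the test (edgeR adjusted p = 0.148; 0.0889 to 0.449 over the alternatives with all libraries). Within a library HBEGF stood at 1.80 and 2.17 times the TPM of EGFR with control shRNA and at 5.19 and 4.74 times with USP47 shRNA, a description of 2 low-count genes. HBEGF lies at chr5:139712428-139726188 on the minus strand.

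NRG1, a neuregulin that binds ERBB3 and ERBB4, had 32 and 35 raw counts with control shRNA and 13 and 19 with USP47 shRNA. In CPM this was 1.88 and 1.78 against 0.623 and 1.32, with both knockdown values below both controls. Its log2 fold change of -0.99 had a wide 95% interval (-1.78 to -0.20) and did not pass the test over all genes (edgeR adjusted p = 0.0856). The size rested on USP47 shRNA replicate 1, since the log2 fold change was -0.46 without it and -1.54 without replicate 2 of that group. NRG1 was called lower with the replicate number as a block (edgeR adjusted p = 0.0141), a fit that called 17.7% of all genes lower.

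TGFA, which encodes transforming growth factor alpha, an EGFR ligand, had 16 and 11 counts in control and 4 and 10 in knockdown libraries. Its groups overlapped, and a change was not detectable at this depth (log2 fold change -0.87, 95% interval -2.11 to 0.38, edgeR adjusted p = 0.313). Without USP47 shRNA replicate 2, a fit in which the lone knockdown library is assumed to vary like the controls, it was called (adjusted p = 0.0186, log2 fold change -1.90, with 15.0% of all genes called lower), while without replicate 1 of that group the log2 fold change was -0.08.

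ERRFI1, the inhibitor that EGFR signaling itself induces, stood at 10.0 and 10.5 CPM with control shRNA and 10.4 and 12.0 CPM with USP47 shRNA. The groups overlapped, and the log2 fold change was 0.12 (95% interval -0.23 to 0.47, edgeR adjusted p = 0.631). Of the whole set it was the gene with the second highest TPM in both groups.

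The genes around the receptors were taken from 6 lists with 94 genes in all, of which 84 were tested, 12 called higher and 12 called lower. That is 28.6% of those tested, beside 16.1% called in either direction over all genes tested. The lists were chosen with earlier results of these libraries known, so these shares describe them and are not independent evidence. The share over all genes was not matched to the lists for abundance, which bears on how readily a gene is called. Of the 6 other ligands of the family, EGF, NRG2 and NRG4 were tested without a call, and BTC, EPGN and NRG3 had at most 3 counts in a library. NRG4 had 2.24 and 1.51 TPM in control and 2.36 and 1.23 TPM in knockdown libraries. It thus stood above HBEGF in the control libraries and overlapped with HBEGF in the knockdown. Of the 7 sheddases and iRhoms 6 were tested (median log2 fold change -0.17), and 1 was called (16.7%), RHBDF2. RHBDF2 encodes iRhom2, which carries the sheddase ADAM17 to the cell surface, and it fell from 22.9 and 21.5 CPM to 11.8 and 11.5 CPM (log2 fold change -0.92, standard error 0.14, edgeR adjusted p = 0.00322). ADAM17 itself had a log2 fold change of 0.29 and ADAM10 one of -0.19, without a call. This list had 3 calls (1 higher, 2 lower) with the replicate block, 4 (1 higher, 3 lower) without USP47 shRNA replicate 1 and 2 (both lower) without USP47 shRNA replicate 2.

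Of the 26 tested adaptors and effectors that bind the receptors or act next to them, 3 were called higher and 8 lower (42.3% called, median log2 fold change -0.17). SHC2, an adaptor of the SHC family, fell most, from 6.23 and 5.80 CPM to 1.06 and 1.60 CPM (log2 fold change -2.21, standard error 0.25). CRK, an SH2 and SH3 domain adaptor, and GAB2, a docking protein that binds GRB2 and PI 3-kinase, fell with log2 fold changes of -0.87 and -0.79. The other five called lower were SRC, NCK2, PTPN11, PLCG1 and GAB1, named although the naming rule took only the 3 with the smallest p. PIK3R3, a regulatory subunit of PI 3-kinase, rose from 112 and 115 CPM to 269 and 303 CPM (log2 fold change 1.33, standard error 0.13, edgeR adjusted p = 0.000520). GRB2, which links receptors to RAS activation, and STAT3, a transcription factor activated by receptors, rose by 0.52 and 0.49 on the log2 scale. Over the alternatives with all libraries the highest adjusted p was above the threshold of 0.05 for GRB2 (0.0514), STAT3 (0.0676), SRC (0.0568), NCK2 (0.106) and GAB1 (0.110). Of this list 3 genes were called without control replicate 1, where GAB2 had an adjusted p of 0.0837, and 4 without control replicate 2.

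In the RAS-RAF-MEK-ERK cascade, 13 genes were tested, 2 were called higher and 0 lower (median log2 fold change 0.19). That is 15.4% called, near the 16.1% called in either direction over all genes tested. The 2 genes were BRAF and ARAF, which encode kinases that RAS activates. BRAF had 54.9 and 51.0 CPM in control and 77.9 and 77.2 CPM in knockdown libraries (log2 fold change 0.55), and ARAF had a log2 fold change of 0.46 with a highest adjusted p of 0.0804 over the alternatives with all libraries. BRAF was not called without control replicate 1 (adjusted p = 0.193) or control replicate 2 (adjusted p = 0.259). The count for the cascade moved from 0 without either control library to 9 (8 higher, 1 lower) without USP47 shRNA replicate 1, and was 7 (6 higher, 1 lower) with the replicate block.

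Of 23 tested genes for receptor down-regulation and endocytosis, 2 were called higher and 3 lower (21.7% called, beside 16.1% over all genes, median log2 fold change 0.06). CBLB, a ubiquitin ligase for activated receptors, rose from 49.5 and 47.5 CPM to 82.3 and 78.3 CPM (log2 fold change 0.73, standard error 0.12), and EPN1, an endocytic adaptor, rose by 0.56 on the log2 scale (highest adjusted p 0.0531 over the alternatives with all libraries). RNF41, also called NRDP1, a ubiquitin ligase that acts on the ERBB3 protein, fell from 99.0 and 104 CPM to 51.2 and 67.1 CPM (log2 fold change -0.78, standard error 0.15, edgeR adjusted p = 0.00820). PTPRJ, a receptor phosphatase that acts on EGFR, fell with a log2 fold change of -0.98, and TSG101, a subunit of the ESCRT-I sorting complex, with one of -0.62. Without control replicate 1 or 2 the calls of CBLB (adjusted p = 0.0742 and 0.0803), TSG101 (0.122 and 0.130) and EPN1 (0.345 and 0.121) were lost. The list had 2 calls in each of these fits, 9 and 10 without USP47 shRNA replicate 1 and 2, and 12 with the replicate block.

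Of 13 tested transcripts that ERK signaling induces, 5 were called higher and 0 lower, and the median log2 fold change was 0.30. The share called higher was 38.5%, beside 6.52% over all genes. This list was also chosen with earlier results of these libraries known, so the share describes it and is not independent evidence. FOS, an AP-1 subunit, rose from 0.941 and 1.17 CPM to 5.52 and 7.09 CPM, and EGR1, a zinc finger transcription factor, from 2.06 and 1.42 CPM to 3.65 and 5.91 CPM. EPHA4, an ephrin receptor, rose from 12.2 and 10.2 CPM to 30.8 and 35.8 CPM (log2 fold change 1.57). The other genes called higher, MYC and CCND1, had log2 fold changes of 0.59 and 0.50. IER3 (0.93) and IER2 (0.30) lay above 0 without a call. Below 0 without a call lay ETV4 (-0.56), SPRY2 (-0.30), FOSL1 (-0.12), PHLDA1 (-0.10) and EPHA2 (-0.07), as well as ETV5. DUSP4, DUSP6 and SPRY4, feedback inhibitors of the same pathway, had at most 9 counts in a library and were not tested, and ETV5, a transcription factor, had a log2 fold change of -1.01 without a call (edgeR adjusted p = 0.0618). ETV5 was called lower with the replicate block (adjusted p = 0.000106), and its log2 fold change lay between -1.65 and -0.45 with 1 library left out. The count for these transcripts was 7 higher and 1 lower with the replicate block, 3 higher and 0 lower without control replicate 1, 4 higher and 1 lower without control replicate 2, and 6 higher and 3 lower without USP47 shRNA replicate 2.

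**Figure D4:**
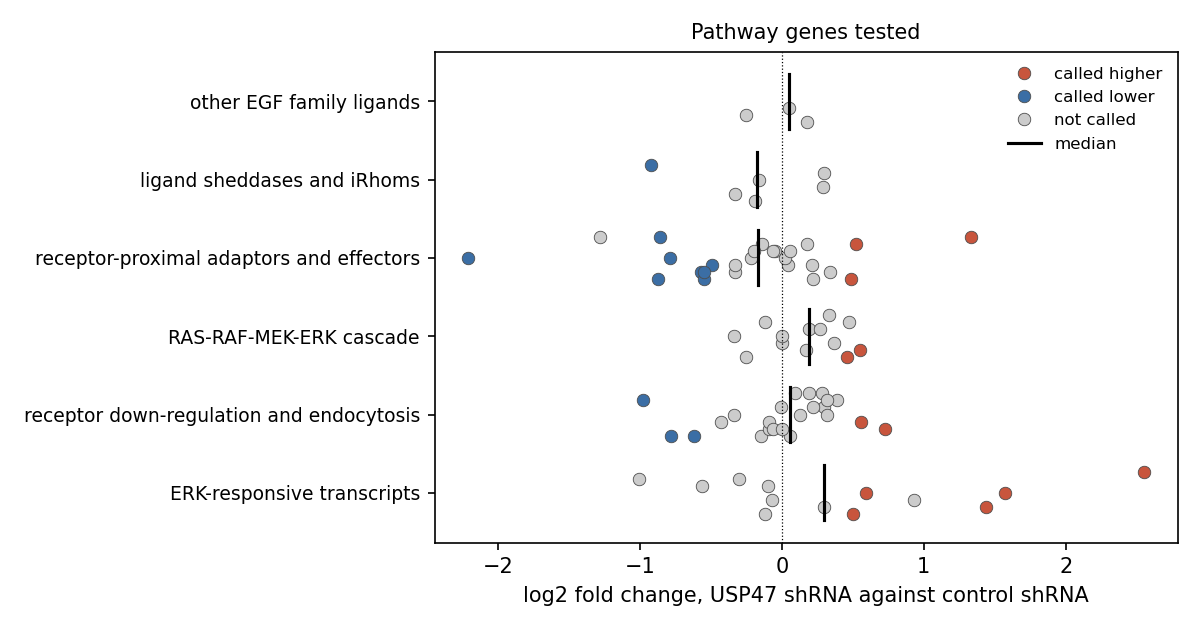
Log2 fold change (horizontal axis) of the tested genes of each pathway list, 1 point per gene, with red for genes called higher, blue for genes called lower, grey for genes not called and a bar at the list's median. The adaptors and effectors hold the most blue points (8 lower, 3 higher), and the ERK-responsive transcripts hold 5 red points and 0 blue ones.

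The genes whose pattern over the 4 libraries was most like that of ERBB3 were TTC30A, PDE9A and MAN1C1, by the Euclidean distance between log2 CPM values centered on each gene's mean (0.121, 0.129 and 0.150, among 15786 genes whose log2 CPM averaged at least 1). With 4 libraries many genes can lie this close. Their log2 fold changes were -1.30, -1.32 and -1.17.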

How the data were processed

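RNA-Seq was available for 4 libraries of HGC-27 cells, grouped by the submitters' titles. The authors deposited raw read counts per gene, with FPKM and TPM that the authors derived from the same counts (FPKM was used only to recover gene lengths). Per the methods, reads were trimmed at quality 20, mapped to hg19 with STAR 2.7.5c and freed of duplicates and low-quality reads with SAMtools 1.9. The submitters' processing notes also name featureCounts and Picard 2.23.3. Removal of duplicates without molecular identifiers can compress fold changes of abundant genes. The labels name a stranded library kit and the methods another kit, and the annotation and strand setting are not given in the sources used here.

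Counts were tested in edgeR 4.0.16 (R 4.3.3) with filterByExpr, TMM, robust quasi-likelihood fit, both directions, and Benjamini-Hochberg adjustment over 21932 genes with a threshold of 0.05. The standard error is the absolute log2 fold change over the square root of F, and each adjusted p credited to edgeR is from this quasi-likelihood test. TPM served only to compare genes within a library. Of 63568 identifiers, 55665 matched a symbol, and gene positions are those of GENCODE release 44 lifted to GRCh37. The fit was tested on simulated data.

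The members, lists and tests were chosen with earlier results of these data known. Named were the 10 members, USP47, up to 3 genes called in each direction per pathway list with the smallest p, and the 3 genes most like ERBB3. Further genes of these lists are given for context, outside this rule. Lists were written from general knowledge. The alternatives were the DESeq2 1.42.0 Wald test, DESeq2 size factors, library size alone, no filter, at least 10 counts in every library, a block for the replicate number, leaving out each library and, chosen later, the legacy method of edgeR.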

Additional observations from a re-analysis of the deposited data

How the results depend on the processing

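With 2 libraries per group, each gene's spread rests mainly on that shared with genes of similar abundance. Genes of the set with under 40 counts (TGFA, NRG1) could not be measured closely. ERBB3 kept its call in every alternative run, ERBB4 in all but the fits without a control library, and EGFR in all but these and the DESeq2 Wald test.

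The number of genes called, 3527, was 2295 with the DESeq2 Wald test, 7422 with the replicate block and between 1226 and 7270 with 1 library left out. The number of called genes of the set, 3, was 2 with the DESeq2 Wald test (ERBB3 and ERBB4), 4 with the replicate block (NRG1 added) and between 1 and 5 with 1 library left out: 1 without either control library (ERBB3), 5 without USP47 shRNA replicate 2 (NRG1 and TGFA added). For the pathway lists 24 genes were called, 43 with the replicate block and between 9 and 43 with 1 library left out, lowest without control replicate 1. The higher share of calls was 40.5%, and 31.5% with library size alone, where the median over all genes was -0.0720 in place of -0.00832 (log2). The log2 fold change of ERBB2 lay between -0.24 and 0.05 with 1 library left out, and reversed without USP47 shRNA replicate 1. With CPM per kilobase of GENCODE 44 exon length 4 ranks differed, those of NRG1 and TGFA in each group. In fits that left out 1 library, the lone library of a group was assumed to vary like the other group. The groups differed in this respect. Across genes the chi-square over degrees of freedom was 19.2 between the 2 USP47 shRNA libraries and 5.38 between the 2 control libraries.

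The deviations of replicate 1 correlated between groups at 0.213 across genes. No source ties a replicate number to a common batch or day, so the libraries share only a number. The legacy method, chosen after seeing the data, called 3485 genes.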
